A study of Drosophila mettleri with 18 samples.

Results

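The 19 assembled genes described here had higher counts on both cacti than on lab food in every fly strain of the study, once counts were scaled between libraries. In some strains the margin was very small. They are 19 of the 15947 features in a table of RNA sequencing counts from larvae of Drosophila mettleri. Larvae were reared on saguaro cactus, on coastal prickly pear cactus or on Drosophila 4-24 Instant food, here lab food. Santa Catalina Island flies came from strain C-M (replicate 1), strain C-7 (replicate 2) and strain C-9 (replicate 3), and Sonoran flies from strain T-22 (replicate 1), strain T-27 (replicate 2) and strain T-28 (replicate 3). Each strain gave 1 library per food, made from a pool of 10 third-instar larvae aged 8 days, so there were 18 libraries in 6 groups of 3. All groups are laboratory strains, no treatment other than food was given in the labels, and a strain has no second pool on any food. Library totals ran from 6769906 to 16115982 counts, and the smallest was Sonoran saguaro replicate 2.

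D. mettleri is known as a desert fly whose larvae feed in soil soaked with the juice of rotting cacti. Saguaro tissue carries isoquinoline alkaloids that this fly tolerates, and prickly pears have a different chemistry. In insects in general, plant diets are known to change the transcripts of detoxifying enzymes such as cytochrome P450s and glutathione transferases, and those of digestive enzymes and transporters. The counts are given per assembly name only, and no table used here pairs these names with gene names or sequences. Which of those roles, if any, a member has is therefore not stated, and whole-larva pools give no cell type to check against markers.

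The members were chosen by their measured levels. Counts were divided by a median-ratio factor per library to give normalised counts, and a level is log2 of the normalised count plus 8, which damps differences of scarce transcripts. After the 100 features with the highest mean level were set aside, 172 features had a lower level on lab food than on either cactus in all 6 strains. Of these, 22 had a smaller cactus difference of at least 0.8 in mean level, and 19 of the 22 also had mean levels on saguaro and prickly pear less than 0.8 apart. A further 22 features met the limits on the means but not the condition in every strain. The food differences below therefore describe how the members were chosen and are not tested. All 19 members passed the filter on low counts of the fits across all features, and their mean levels lay between the 30.5th and the 96.4th percentile of the table.

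**Figure D1:**
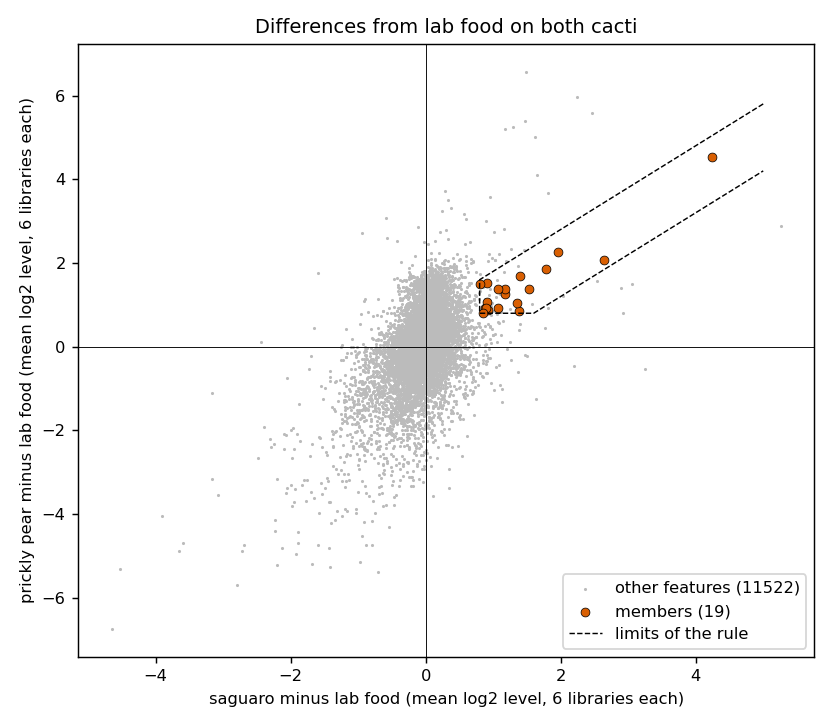
Each point is 1 feature with a mean count of at least 10, placed by its mean level on saguaro minus that on lab food (x axis, log2) and on prickly pear minus lab food (y axis, log2), over 6 libraries per food. The 19 members (orange) lie inside the dashed limits of the rule, from 0.81 to 4.24 on saguaro and from 0.81 to 4.54 on prickly pear. Grey points inside the limits fell short in a strain.

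The members' differences from lab food ran from 0.81 to 4.24 on saguaro, with a median of 1.17, and from 0.81 to 4.54 on prickly pear, with a median of 1.37. Over the 11541 features with a mean count of at least 10, the median difference was -0.01 on saguaro and 0.06 on prickly pear. The members held 0.0902% to 0.232% of a library's counts on saguaro and 0.136% to 0.267% on prickly pear, against 0.0406% to 0.0887% on lab food. The mean share was 0.147% ± 0.0498 on saguaro, 0.218% ± 0.0479 on prickly pear and 0.0545% ± 0.0186 on lab food (SD, n = 6 each). These shares do not overlap between either cactus and lab food, but the members were selected on the same libraries. The shares are of raw library totals, without the scaling factors. By totals alone the median prickly pear difference of all features was 0.62 in place of 0.06, so the 2 cacti are not compared by share. The members' normalised counts added up to 14675 to 30481 on saguaro, 15340 to 23518 on prickly pear and 6218 to 10531 on lab food. The group as a whole was a small part of each larva's RNA on every food.

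comp14084_c0 had the widest difference. On saguaro its normalised counts were 2594, 1007 and 12.9 in Santa Catalina replicates 1, 2 and 3 and 1343, 562 and 976 in Sonoran replicates 1, 2 and 3. On prickly pear they were 1607, 401 and 359.5 in Santa Catalina and 1317, 981 and 449.5 in Sonoran. On lab food they were 45.9, 10.6 and 5.36 in Santa Catalina and 30.2, 43.3 and 27.3 in Sonoran. Every prickly pear library was thus far above every lab food library, and so were all saguaro libraries but Santa Catalina replicate 3, which lay among the lab food values. The means were 1082 ± 870.1 on saguaro, 852 ± 531 on prickly pear and 27.1 ± 16.6 on lab food (SD, n = 6 each). The means on the cacti were 39.9 times (saguaro) and 31.4 times (prickly pear) the mean on lab food. Without the Santa Catalina saguaro replicate 3 library, the saguaro difference in level was 5.20 in place of 4.24.

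comp38965_c0 had the next widest difference, from low counts. Its normalised counts on saguaro were 141, 54.9 and 16.1 in Santa Catalina and 193, 487 and 27.6 in Sonoran. On prickly pear they were 65.4, 129 and 7.64 in Santa Catalina and 34.1, 167 and 59.0 in Sonoran. On lab food they were 8.27, 8.98 and 4.29 in Santa Catalina and 11.3, 10.3 and 3.41 in Sonoran. All saguaro values were above all lab food values, while Santa Catalina prickly pear replicate 3 fell within the lab food range. Relative to the mean, normalised counts of this gene spread the most among the members on saguaro, with an SD of 116% of the mean. In level, which is on a log scale, comp14084_c0 spread more on saguaro, with an SD of 2.47 against 1.65. Without the Santa Catalina saguaro replicate 3 library the cacti were 0.96 apart in level for comp38965_c0, and it no longer met the rule.

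**Figure D2:**
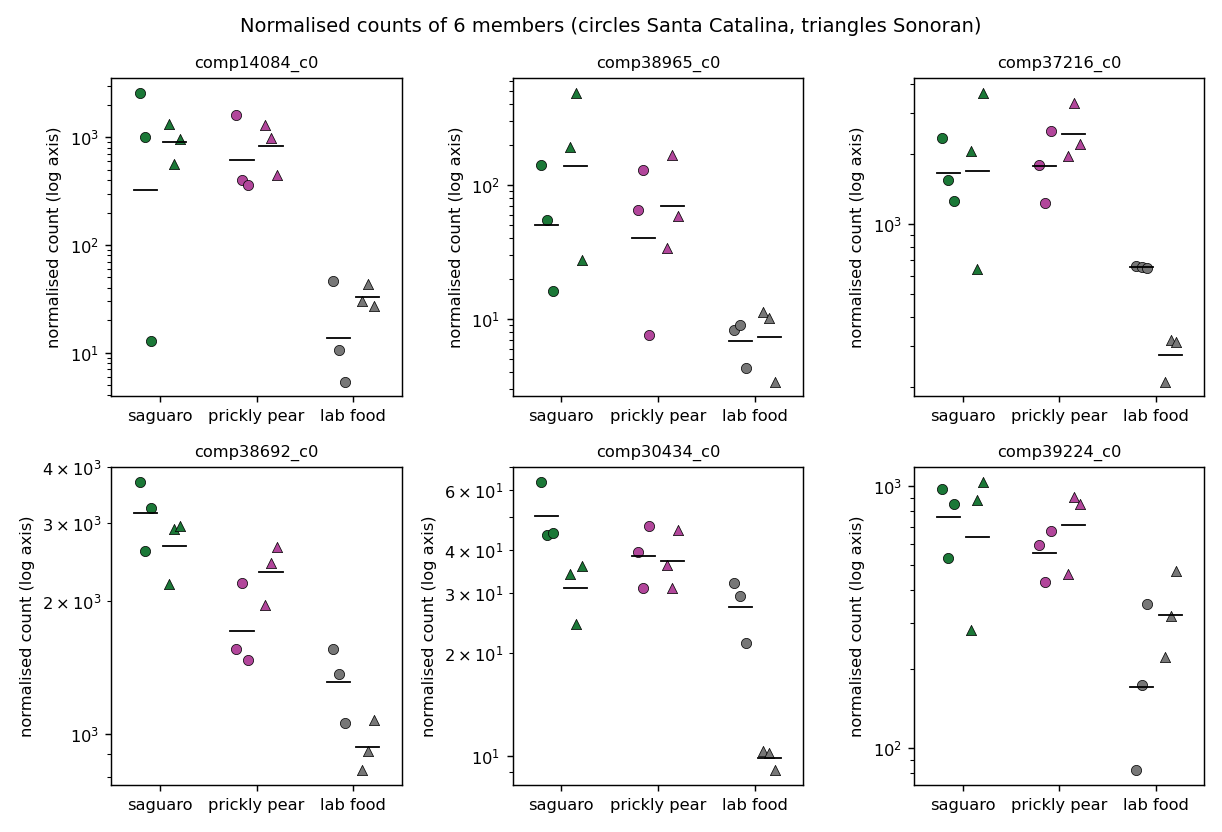
Normalised counts (log axis) of 6 members by food, 3 strains of each population per food, with the geometric mean of each group of 3 as a bar. comp14084_c0 sits between 359.5 and 2594 on both cacti except for Santa Catalina saguaro replicate 3 at 12.9, and the lab food values of comp30434_c0 are 21.4 to 32.1 in Santa Catalina and 9.09 to 10.4 in Sonoran.

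Most other members differed by less than 2 in level. comp21621_c0, the member with the highest mean level (counts are not per length here, so levels are not ranked between genes), had 1897 to 6737 normalised counts on saguaro with a median of 4330.5, 3513 to 5331 on prickly pear with a median of 4158, and 648 to 2525 on lab food with a median of 988. Its prickly pear libraries did not overlap those on lab food. On saguaro, Sonoran replicate 2 at 1897 lay below the Santa Catalina lab food replicate 2 value of 2525. comp27252_c0, the member with the lowest mean level, had 11.6 to 22.5 normalised counts on saguaro with a median of 16.7, 2.73 to 24.1 on prickly pear with a median of 15.4, and 0.817 to 6.43 on lab food with a median of 4.51. It had 1 to 7 raw counts in the lab food libraries, so its difference rests on few reads.

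Only 3 members stood clear of the lab food range on both cacti, and they are named because of that. comp36757_c0 had 92.3 to 299 normalised counts on saguaro with a median of 207, 172 to 269.8 on prickly pear with a median of 221, and 46.6 to 79.9 on lab food with a median of 67.3. comp38283_c0 had 1391 to 3675 on saguaro with a median of 2118, 1555 to 2911 on prickly pear with a median of 2320.5, and 690.1 to 1234 on lab food with a median of 876. The margin was narrower for comp38400_c0, which had 544 to 1166 on saguaro, 523 to 1378 on prickly pear and 285 to 516 on lab food. Its lowest cactus values and its highest lab food value, 516, were all in Santa Catalina strains.

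4 further members are given here for a wider range on saguaro than on prickly pear, a difference in spread that was not tested. For comp38400_c0, comp27252_c0, comp29423_c0, comp39535_c0 and comp39535_c1 the range was wider on prickly pear. comp39602_c5 had 264 to 1429.9 normalised counts on saguaro, 572 to 1081 on prickly pear and 209 to 721 on lab food. comp29375_c1 had 403 to 1239.7 on saguaro, 666 to 1113 on prickly pear and 253 to 524 on lab food. In both of these genes the lowest saguaro library was Sonoran replicate 2, which overlapped the lab food values, and comp39602_c5 also had a high lab food value of 721 in Santa Catalina replicate 2. comp37620_c0 had 688 to 1669 on saguaro, 907 to 1353 on prickly pear and 357 to 796 on lab food. comp33853_c0 had 457 to 1419 on saguaro, 569 to 1241 on prickly pear and 242 to 588 on lab food. Its overlap with the highest lab food value, Sonoran replicate 2, came from Santa Catalina replicate 3 on both cacti and also from Sonoran replicate 1 on prickly pear. As the rule requires, each strain on its own was higher on both cacti for all 19 members. Libraries of different foods that overlapped were therefore of different strains. With 1 pool per strain and food, strains and pools cannot be told apart here.

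At the edge of the rule, comp39535_c1 was the last member, with a smaller difference of 0.807, and comp34079_c0 the first feature outside it, with 0.799. comp39535_c1 had 950.2 to 1239.9 normalised counts on saguaro, 798 to 1328 on prickly pear and 502 to 851 on lab food. Only the saguaro libraries stood clear of the lab food range. Its partner comp39535_c0, a feature of the same assembly component, had 634 to 889.9 on saguaro, 567 to 1076 on prickly pear and 296 to 632 on lab food, with the same separation. Features of 1 component can be versions of a gene between which reads are divided, and whether this holds for the pair was not tested.

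Groups did not overlap for part of the members. Every saguaro library was above every lab food library for 8 of 19 members, and this held for 0.407% of the 11541 features with a mean count of at least 10. Every prickly pear library was above every lab food library for 10 of 19 members and 5.87% of features. Both held for 3 of 19 members and 0.113% of features. In the edgeR quasi-likelihood fit of all features, a call is an adjusted p below 0.05. Against lab food, 9 of 19 members were called higher on saguaro, beside 0.16% of the 12514 features tested, and 19 of 19 were called higher on prickly pear, beside 19.5%. The rule used these contrasts and both share the lab food libraries, so nothing is read from the counts. The saguaro count fell to 1 when strain C-M, T-22 or T-28 was left out, beside 0.0237%, 0.0237% and 0.0552% of all features in those fits. It fell to 4 without strain C-7, beside 0.0791%, and without strain T-27, beside 0.0551%, and it was 16 with DESeq2, beside 0.767%.

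**Figure D3:**
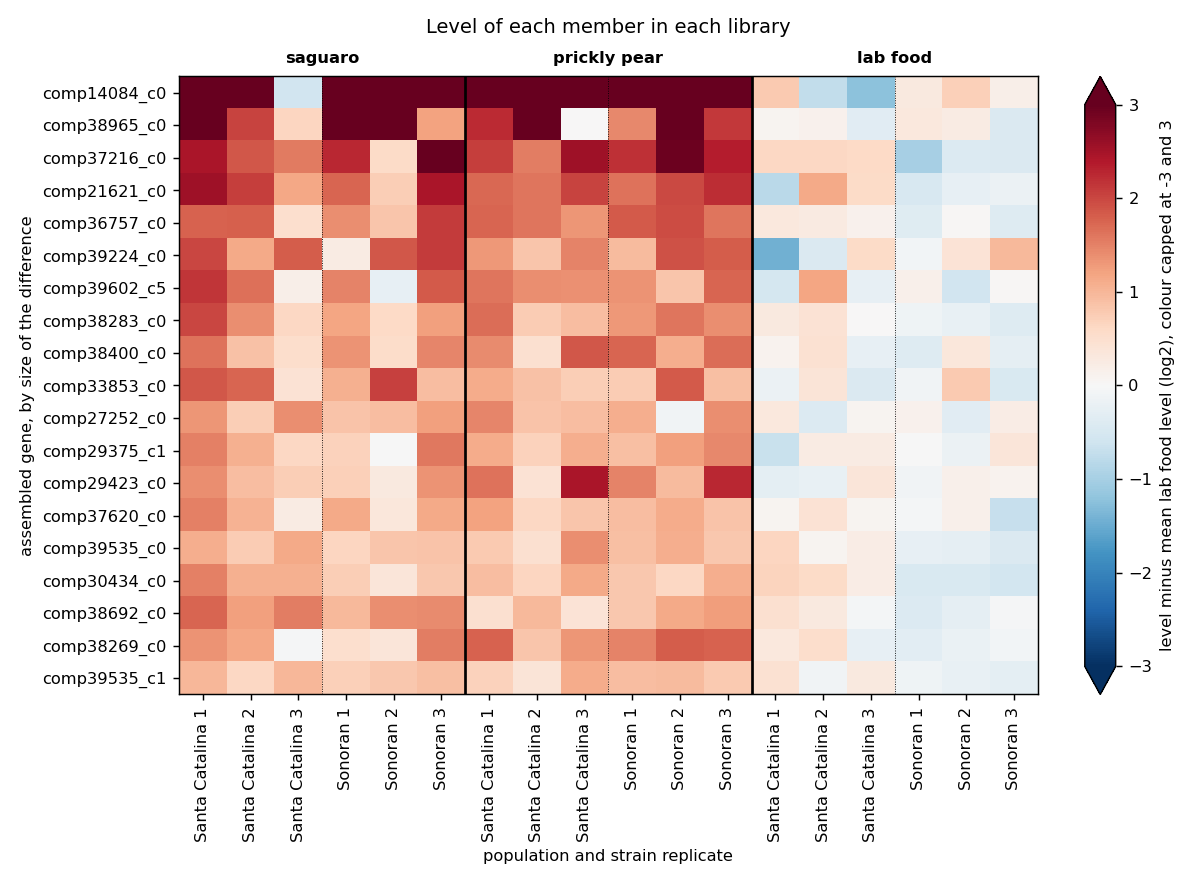
Level of each member (rows, by size of the smaller difference) in each library (columns), minus the member's mean level on lab food (log2, colours capped at -3 and 3). Levels are higher in nearly all cactus libraries, with the palest saguaro columns in Santa Catalina replicate 3 and Sonoran replicate 2.

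Within the limit the rule set, some members leaned to 1 cactus. comp38692_c0 leaned to saguaro. It had 3715, 2591 and 3237 normalised counts on saguaro in Santa Catalina and 2185, 2899 and 2948 in Sonoran. On prickly pear it had 1553, 2192 and 1465 in Santa Catalina and 1951, 2435 and 2637 in Sonoran, and on lab food 1551, 1362 and 1055 in Santa Catalina and 826, 914 and 1074 in Sonoran. It was higher on saguaro than on prickly pear in 6 of 6 strains, by 0.16 to 1.25 in level, and it was the only member of which this was true. It was also the only member called higher on saguaro than on prickly pear by edgeR, beside 13.9% of all features. The rule capped this difference, so nothing is read from the count. That call was lost on leaving out any strain but C-7. Scaled by library totals alone, its log2 fold change was -0.06 and uncalled, 7 other members were called lower on saguaro beside 58.2% of all features, and the median over all features was -0.68 in place of -0.07. comp38965_c0 leaned to saguaro as well, by 0.56 in mean level, in 4 of 6 strains.

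comp38269_c0 leaned furthest to prickly pear, with 188 to 573 normalised counts on saguaro (median 361), 349 to 698 on prickly pear (median 619) and 154 to 284 on lab food (median 175). Its saguaro level was 0.69 below its prickly pear level on average, and lower in 5 of 6 strains. comp29423_c0 had 316 to 687 normalised counts on saguaro (median 464), 349.9 to 1439 on prickly pear (median 772) and 207 to 333 on lab food (median 258). Its saguaro level was 0.63 lower on average, again in 5 of 6 strains. For both genes the prickly pear libraries cleared the lab food range and the saguaro libraries did not.

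The strains differed in how far the members departed from lab food. Some differences within a strain were almost ties. On prickly pear the smallest was 0.0017 in level for comp38692_c0 in Santa Catalina replicate 1, and comp38400_c0 had 0.018 in Santa Catalina replicate 2. The smallest on saguaro was 0.14, for comp29423_c0 in Sonoran replicate 2. On saguaro, the median difference over the 19 members within a strain was 1.69, 0.92 and 0.72 in Santa Catalina replicates 1, 2 and 3, and 1.20, 0.97 and 1.61 in Sonoran replicates 1, 2 and 3. On prickly pear it was 1.44, 0.49 and 1.16 in Santa Catalina and 1.23, 1.42 and 1.72 in Sonoran. Over all 11541 features with a mean count of at least 10 these medians lay between -0.08 and 0.09. Santa Catalina replicate 3 gave the smallest saguaro difference for 9 of 19 members, and Santa Catalina replicate 2 the smallest prickly pear difference for 11 of 19. These counts were not made over all features, so whether they are particular to the members is not known. The strain with the smallest median was thus a Santa Catalina strain on both cacti, but not the same one.

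**Figure D4:**
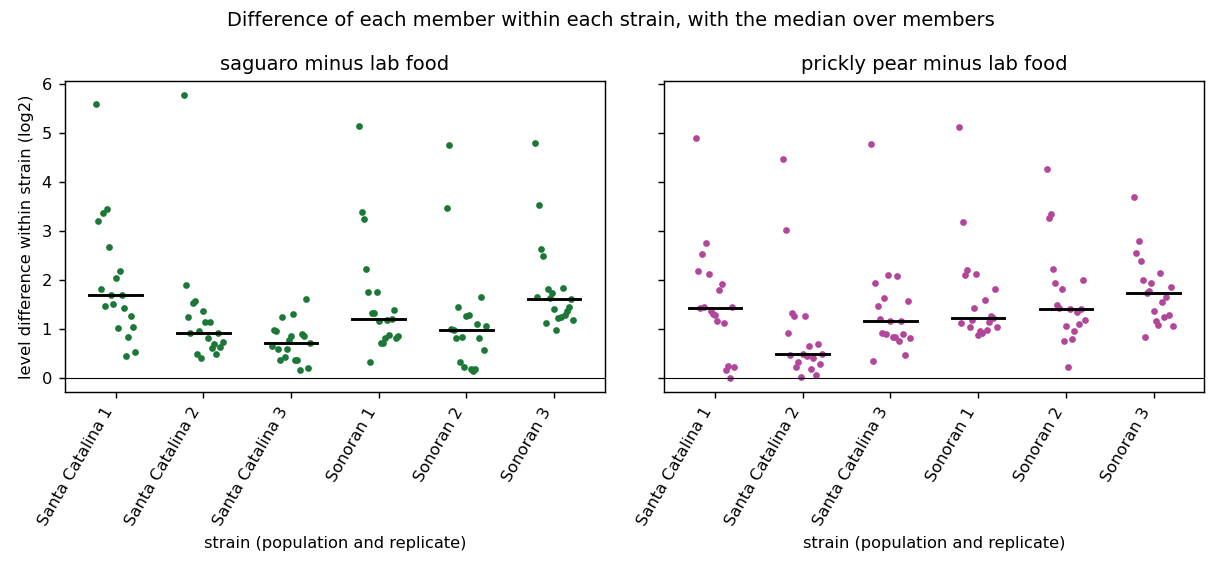
Difference in level between a cactus and lab food within each strain (y axis, log2), with a point for each of the 19 members and a bar at their median. All points are above 0, as the rule requires, and the lowest medians are 0.72 in Santa Catalina 3 on saguaro and 0.49 in Santa Catalina 2 on prickly pear.

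Deviations from the group means showed that members often moved together from library to library. In Santa Catalina saguaro replicate 1, 19 of 19 members were above their group mean, with a median deviation of 0.49. In Santa Catalina saguaro replicate 3 it was 5 of 19, with a median of -0.48, in Sonoran saguaro replicate 2 it was 6 of 19, with a median of -0.43, and in Santa Catalina prickly pear replicate 2 it was 3 of 19, with a median of -0.27. The median deviation of all features was within -0.05 and 0.04 in every library. Sonoran saguaro replicate 2 was also the smallest library, and in Santa Catalina saguaro replicate 1 the 100 most abundant features held 57.9% of counts, the most of any library. The part of these values in the deviations was not tested. Across 18 libraries, which share their scaling factors, the deviations of member pairs had a median Pearson r of 0.26 (171 pairs, from -0.61 to 0.94), beside -0.0012 for pairs of all features. The members were selected on these same libraries and the pairs of all features were not. What this adds to r was not tested. The closest pairs were comp39535_c0 with comp39535_c1, at 0.94, and comp21621_c0 with comp29375_c1, at 0.91.

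The 19 members came from 18 assembly components, 14 of which held a single feature. In comp39535 both features are members, and 3 other components hold 5 features that are not. The component of comp38692_c0 holds another feature, comp38692_c1, at -0.03 on saguaro and -0.41 on prickly pear relative to lab food in level. The component of comp39602_c5 holds 3 other features, with differences of -0.16 to 0.05 on saguaro and -0.83 to -0.18 on prickly pear. Of the 5, only comp29375_c0, the partner of comp29375_c1, was also higher on both, by 0.88 on saguaro and 1.14 on prickly pear, though not in every strain.

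Whether the populations differed in these transcripts is a question that the rule did not use. Over the 3 foods, with counts summed per strain, none of the members was called between Santa Catalina and Sonoran by edgeR's quasi-likelihood test (0 of 19, beside 0.0914% of 13129 features), and DESeq2 also called 0 of 19, against 1.87%. At an unadjusted p below 0.05, 1 of 19 members passed, against 11.9% of all features. The members' log2 fold changes, Santa Catalina over Sonoran, ran from -1.02 to 0.49 with a median of -0.02, and 9 were above 0 and 10 below; the median of all features was -0.01. comp30434_c0 had the smallest p, at 0.49 on the log2 scale (SE 0.18, adjusted p = 0.39, edgeR), and comp39535_c0 came next in that direction with 0.19 (SE 0.16, adjusted p = 0.717, edgeR). In the other direction were comp37216_c0, at -0.30 (SE 0.19, adjusted p = 0.607, edgeR), and comp38965_c0, at -1.02 (SE 0.81, adjusted p = 0.701, edgeR). Without Sonoran replicate 2 the value for comp38965_c0 was -0.17, and without Santa Catalina replicate 3 it was -0.52. The sign of comp37216_c0 turned, to 0.12, when the foods were given equal weight in the fit of 18 libraries.

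The response to a cactus is its difference from lab food within a population. For prickly pear no member's response passed the test of a difference between the populations. The difference between the responses, Santa Catalina minus Sonoran, was below 0 for 15 of 19 members, with a median log2 value of -0.49, beside 59.5% of all features below 0 and a median of -0.10. Without Santa Catalina replicate 2 it was below 0 for 12 of 19 members, beside 59.7% of all features. Without any other single strain it was below 0 for 15 or 16 of 19. With all strains, none of the members was called by edgeR (0 of 19, against 0% of 12514 features) or by DESeq2 (0 of 19, against 0%). In edgeR, 5 of 19 had an unadjusted p below 0.05, against 4.44%. These 5 included both features of component comp39535, whose deviations had a Pearson r of 0.94, so the 5 are not all separate. Since the rule asks every strain to be higher on the cacti, it limits how far the responses can differ. comp30434_c0 had normalised counts of 39.6, 31.0 and 47.0 on prickly pear against 32.1, 29.4 and 21.4 on lab food in Santa Catalina, and of 36.2, 31.0 and 46.0 on prickly pear against 10.4, 10.3 and 9.09 on lab food in Sonoran. The populations overlapped on prickly pear and were apart on lab food, and the difference of the responses was -1.46 (SE 0.38, adjusted p = 0.852, edgeR). For comp38692_c0, whose values are given above, it was -0.99 (SE 0.29, adjusted p = 0.852, edgeR). On the other side, comp39224_c0 had 0.29 (SE 0.73, adjusted p = 0.952, edgeR) and comp27252_c0 had 0.27 (SE 1.01, adjusted p = 0.974, edgeR), and each of these signs turned without 1 Santa Catalina strain.

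**Figure D5:**
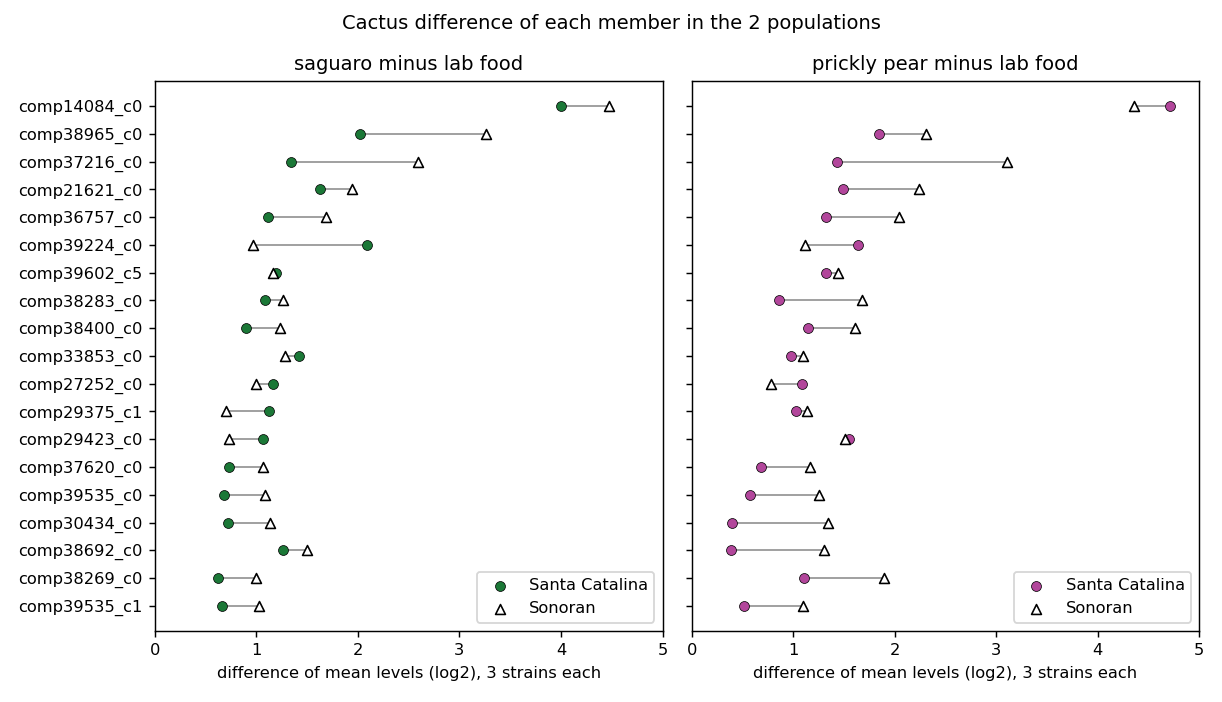
Mean level on a cactus minus mean level on lab food for each member (x axis, log2), over 3 strains of each population. On prickly pear, Sonoran (open triangles) lies right of Santa Catalina (filled circles) for most members, as with comp37216_c0 at 1.43 in Santa Catalina and 3.11 in Sonoran, while comp39224_c0 on saguaro is at 2.09 in Santa Catalina and 0.97 in Sonoran.

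For saguaro, too, no member's response passed the test of a difference between the populations. The difference, Santa Catalina minus Sonoran, was below 0 for 13 of 19 members with a median of -0.30, beside 54.3% of all features and a median of -0.06. edgeR called none (0 of 19, against 0% of 12514 features), DESeq2 called 0 of 19 against 3.01%, and 2 of 19 had an unadjusted p below 0.05 in edgeR, against 18.4%. comp37216_c0 had 2349.8, 1557 and 1264 normalised counts on saguaro against 661, 655 and 648 on lab food in Santa Catalina, and 2058, 641 and 3677 on saguaro against 209.9, 317 and 313 on lab food in Sonoran. Saguaro values overlapped between the populations and lab food values did not, and the difference of the responses was -1.57 (SE 0.65, adjusted p = 0.222, edgeR). For comp30434_c0 it was -0.82 (SE 0.38, adjusted p = 0.264, edgeR). comp39224_c0 had 971, 529 and 850.2 normalised counts on saguaro against 81.7, 173 and 354 on lab food in Santa Catalina, and 281, 884 and 1040.0 on saguaro against 221, 318 and 473 on lab food in Sonoran. Its difference of the responses was 0.80 (SE 0.73, adjusted p = 0.597, edgeR). comp14084_c0 had 0.97 (SE 1.59, adjusted p = 0.788, edgeR), whereas the difference of its mean levels, which are on a log scale, was -0.47. Without Sonoran replicate 3, 9 of 19 members were below 0, beside 51.1% of all features. With library totals alone, 17 of 19 members and 82.4% of all features were below 0.

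The populations were also compared on single foods, which was added after these values were seen. Santa Catalina over Sonoran, the members' median log2 fold change was 0.43 on lab food, with 12 of 19 above 0, beside a median of 0.02 over all features. The members' medians were 0.14 on saguaro and -0.30 on prickly pear, beside -0.06 on saguaro and -0.03 on prickly pear over all features. With library totals alone the saguaro median turned to -0.18, beside -0.33 over all features. The lab food libraries here are the same ones that enter both differences in response. On lab food, every Santa Catalina library was above every Sonoran library for 6 of 19 members, against 12.3% of all features, and the reverse held for 0 of 19, against 8.27%. These 6 included both features of component comp39535. On saguaro the first count was 1 of 19, against 4.39%, and the reverse 0 of 19, against 3.96%. On prickly pear they were 0 of 19, against 8.57%, and 0 of 19, against 4.24%. edgeR called no member on lab food (0 of 19, against 0.128%), with 5 of 19 at an unadjusted p below 0.05, against 17.6%, and DESeq2 called 1 of 19, against 4.58%. The 5 were the same members as for the response to prickly pear, which uses these lab food libraries too. The counts are therefore not separate results. comp30434_c0 was the member DESeq2 called, at 1.45 in edgeR (log2, SE 0.28, adjusted p = 0.0696). Over 11 other settings its adjusted p ran from 0.0115 (DESeq2) to 0.457 (edgeR), and without Santa Catalina replicate 3 it and comp39535_c0 were called higher in Santa Catalina by edgeR, 2 of 19 beside 4.26% of all features. On saguaro edgeR and DESeq2 called 0 of 19 members (against 0.136% and 0.424%), with 1 of 19 at an unadjusted p below 0.05 in edgeR, against 5.95%. On prickly pear they also called 0 of 19 (against 0.04% and 0.264%), with 1 of 19 at an unadjusted p below 0.05, against 3.16%.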

How the data were processed

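The authors deposited whole-number counts per assembled gene for 18 larval libraries. Transcripts were assembled without a genome and the isoforms of an assembled gene were added up, as the series' own design text says. edgeR is named in the submitters' processing notes. The read counter and any filter or rounding: not given in the sources used here. Members, lists and tests were chosen with earlier results of these data known. Each sample's group came from its title.

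Scaling factors were medians of the ratios to row geometric means over the 10912 rows without a 0. Fits across all features used edgeR 4.0.16 in R 4.3.3: filterByExpr, TMM factors, 6 group means, quasi-likelihood F tests and Benjamini-Hochberg adjustment, with calls at adjusted p below 0.05. SE was taken as the absolute log2 value over the square root of F. Populations over the 3 foods were compared on counts summed per strain. Populations on single foods, and settings without the Santa Catalina saguaro replicate 3 library, were added after seeing the data. DESeq2 1.42.0, other scalings, no filter, a replicate block and leaving out each strain were alternatives. The fits were also run on counts simulated for independent libraries. That simulation held no strain effect, so it does not cover the pairing of foods within strains. Since a strain had 1 pool per food, p-values rest on strains and pools that cannot be told apart.

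Libraries are paired across foods within a population, since each strain was reared on all foods per the labels. Deviations of libraries of a strain correlated with a median r of 0.136, and 12 of 18 pairs were over 0.1. No library repeated another: within groups, chi-square over its degrees of freedom was at least 26.6.

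Named are, at most 2 per direction and comparison, the members with the widest difference, at the edge of the rule, with the highest and lowest level, with the strongest lean to a cactus and with the smallest p between populations. The remaining members, given by their ranges, component partners and genes named for lab food were chosen after their values were seen.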

Additional observations from a re-analysis of the deposited data

Results flagged for a closer look

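In a screen of the 39 sets of 6 libraries on a food that the members' share of counts and the levels of 12 named members form, a gap test set a single library apart from its food group. comp14084_c0 had a level of 4.38 in Santa Catalina saguaro replicate 3, beside 9.15 to 11.35 in the other 5 saguaro libraries, and the gap was 0.685 of the whole range against a critical ratio of 0.625. For independent sets this ratio is nominally passed in about 1 in 20. The 39 sets share the same 18 libraries and the members were named for their values, so that rate does not apply here. The same strain had 359.5 normalised counts of this gene on prickly pear and 5.36 on lab food. Santa Catalina saguaro replicate 3 also gave the smallest saguaro difference for 9 of the 19 members, a count not made over all features. Why this library stood apart was not tested.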

How the results depend on the processing

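The number of features that met the rule was 19 and stayed within 1.5 times of that in 5 of 6 other settings on all 18 libraries, at 15 to 28; library totals alone gave 25, of which 10 were among the 19. A minimum difference of 1 left 10. Without 1 strain the number ran from 15 to 43, the highest without Santa Catalina replicate 3, and without the saguaro library of that strain alone it was 37, which included 18 of the 19. The library totals moved the median prickly pear difference of all features from 0.06 to 0.62, and the 19 members remained above 0 on both cacti.

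The members called on saguaro against lab food were 9, 16 with DESeq2, 12 without the Santa Catalina saguaro replicate 3 library, and 1 to 8 without 1 strain. Over all features tested, in either direction, these fits called 45 of 12514, 209 of 12514, 59 of 12732, and 4 to 42. Those called on saguaro against prickly pear in either direction were 1, 7 (all lower on saguaro) with library totals alone, and 0 to 3 without 1 strain. Over all features these fits called 2521 of 12514, 7997 of 12514, and 0 to 4884. The 3 members were called in the fit that called 4884 of 12641 features. With strain as a replicate block, which pairs the foods, 11 members were called on saguaro and 19 on prickly pear against lab food. Beside them stood 42 and 4737 of all 12514 features. The members' counts of calls between the cacti and for the differences in response did not change. At an unadjusted p below 0.05 in edgeR with the block, the response differed for 6 of 19 members on prickly pear and 0 of 19 on saguaro. Over all features it differed for 557 and 2332 of 12514. The population comparisons were not run with the block. The counts of 0 between the populations over the 3 foods and for both differences in response were 0 in all settings run. On lab food the populations gave 1 call among the members with DESeq2 and 0 to 2 without 1 strain. Over all features these fits gave 573 and 5 to 854 calls. Of 188 alternative values of single members, 182 kept direction and call, 3 gained a call and 3 turned sign, all uncalled: comp37216_c0 between populations to 0.12 with all 18 libraries, and in the response to prickly pear comp39224_c0 to -0.11 without Santa Catalina replicate 1 and comp27252_c0 to -0.077 without Santa Catalina replicate 2 (without other strains these reached 0.79 and 0.60). The cause was not tested. comp27252_c0 had only 1 to 7 counts per lab food library.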
